A study of Mus musculus with 2 samples.

Results

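The Cxcl17 Clca1 Car12 cells are a set of epithelial cells of the mouse uterus, and 394 of the 7076 cells in the series belonged to it. They were chosen from their own counts of unique molecular identifiers (UMIs, each 1 captured transcript molecule). A cell entered the set if it carried at least 3 UMIs of the epithelial genes Epcam, Cdh1, Cldn3 and Cldn4 together, with none of Ptprc (leukocytes) or Pdgfra (fibroblasts). It then needed at least 2 UMIs over Cxcl17, Clca1 and Car12, and more of these than of Sprr2d, Krt6a and Dmkn or of Cited1, Efhd1 and Ankrd37, which define 2 other epithelial sets. Ties were left out. The library labelled control held 382 members among its 3490 cells, and the library labelled cKO held 12 among 3586. The name secretory epithelium rests on the control members, since only 4 of the 12 cKO members held Clca1. Because these counts chose the members, the levels of the 3 genes are given as a description.

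The series compared whole uteri of C57BL/6J female mice, aged 6 months, by droplet-based single-cell RNA sequencing after 5 h of collagenase digestion. Each library was 1 pool of 3 mice. The control pool is titled Prickle1 f/f, so its mice carry the floxed Prickle1 alleles that the other pool also carries. The cKO pool is titled Prickle1 f/f MiC. MiC is not spelled out in the labels, nor are the cells in which it acts, and both pools are entered as wild-type under genotype. Prickle1 encodes a core protein of planar cell polarity, the system that orients cells within the plane of a tissue.

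The epithelium of the uterus lines the lumen and folds into glands. It secretes a fluid of antimicrobial proteins, protease inhibitors and mucus, and moves salt and water across its surface under the control of oestrogen and progesterone. Cxcl17 is a mucosal chemokine, Clca1 is a secreted metalloprotease of mucus-producing epithelia that takes part in chloride channel regulation, and Car12 is a membrane carbonic anhydrase that turns over carbon dioxide and bicarbonate. Prap1, a secreted proline-rich acidic protein of the pregnant uterus and gut, is the fourth label gene and took no part in choosing the cells.

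The median depth was 7588 UMIs per control member (range 1049 to 179040) and 11914.5 per cKO member (2218 to 26218). Summed over cells they gave 7294677 and 140122 UMIs, of library totals of 45035801 and 34261441. The median mitochondrial share was 6.09% in control members, against 4.86% in the Sprr2d set and 3.95% in the Cited1 set of the same library, and 6.29% in cKO members. Prickle1 was too sparse to check the labels in these cells: 6 of 382 control members held 8 UMIs and 1 of 12 cKO members held 1 UMI. Over all cells the cKO library held 265 Prickle1 UMIs and the control library 96, so the gene named in the titles was not lower in cKO. Of the 6 cell barcodes that occurred in both libraries, 1 was a member. With 1 library per group no difference between the libraries could be tested, and the 95% intervals given (exact Poisson for levels, Clopper-Pearson for shares, exact conditional for ratios) cover counting error only, not the spread between mice. Levels are UMIs per 1000000 of the summed cells (CPM), and log2 ratios were taken on CPM + 5, which understates the change of low genes.

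Most control members carried more than 1 of the 3 genes, and Clca1 was the most frequent. Clca1 (chr3:145003817-145032776, minus strand) was counted in 342 of 382 cells (89.5%), with a median of 5 and a maximum of 537 UMIs. Cxcl17 (chr7:25400053-25412886, minus strand) was counted in 293 cells (76.7%), with a median of 2 and a maximum of 91. Car12 (chr9:66713686-66766845, plus strand) was the least frequent, in 208 cells (54.5%), with a median of 1 and a maximum of 76. All 3 were found in 149 cells, 2 of them in 163 and 1 in 70, and this number moved with depth: the median was 22726, 5831 and 3510.5 UMIs in those cells. When each cell was thinned to 1000 UMIs, 5 cells kept all 3 genes and 111 kept none, so the groups of 1, 2 and 3 genes cannot be told apart from depth.

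Far fewer cells of other types passed the 2-UMI threshold. In the library labelled control 619 of 1159 gated epithelial cells (53.4%) had at least 2 UMIs of the 3 genes, against 24 of 766 Ptprc-positive cells (3.13%) and 16 of 701 Pdgfra-positive cells (2.28%). In cKO these shares were 19 of 91 (20.9%), 2 of 1091 (0.183%) and 2 of 1142 (0.175%). Free RNA in empty droplets held Clca1 at 236 CPM in control and 1.10 CPM in cKO, so background was higher in the control library. Control members held Clca1 at 1349 CPM, close to the Sprr2d set (1272) and above the Cited1 set (222). Clca1 thus did not set members apart from the Sprr2d set. Cxcl17 was at 307 CPM in control members, 211 in the Sprr2d set and 64.5 in the Cited1 set, and Car12 at 139, 26.4 and 38.2. Markers of other cell types were low in control members. The 5 fibroblast genes summed to 649 UMIs, of which 93.4% lay in 7 cells, and the smooth muscle genes to 202 UMIs. The macrophage genes summed to 11, the T or NK genes to 4 (Cd3e, Nkg7 and Ncr1 at 0) and the endothelial genes to 11. In cKO members the fibroblast genes summed to 2 UMIs (Dcn, Lum, Col1a2 and Col3a1 at 0) and the macrophage, T or NK and endothelial genes were all at 0. Markers of ciliated epithelium summed to 32 UMIs in control members and 2 in cKO members.

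**Figure D1:**
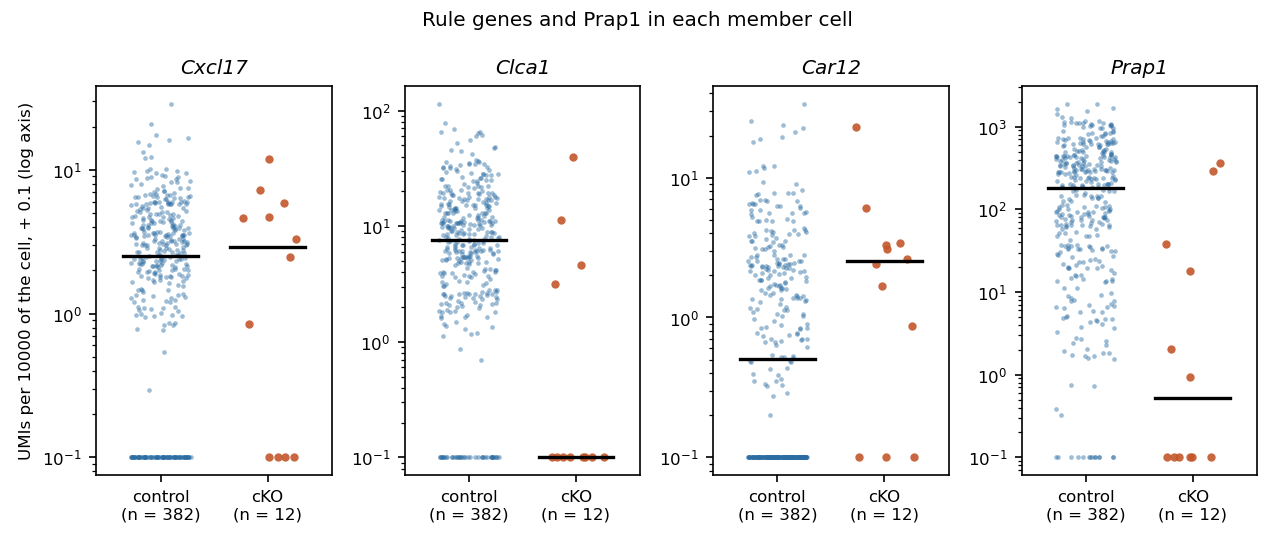
UMIs per 10000 of each cell (log axis, 0.1 added) for Cxcl17, Clca1, Car12 and Prap1 in the 382 members of the library labelled control and the 12 of the library labelled cKO. Each point is 1 cell and the bar is the median. Clca1 was found in 4 of 12 cKO members, against 342 of 382 control members, and Prap1 in 6 of 12 against 368 of 382.

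Prap1, which the rule did not use, was present in 368 of 382 control members (96.3%) with a median of 135.5 UMIs per cell and a maximum of 5167. Its level was 20267 CPM (95% interval 20164 to 20371) in control members, 7096 CPM in the Sprr2d set and 12186 CPM in the Cited1 set. The log2 ratio was 1.51 over the Sprr2d set and 0.73 over the Cited1 set. Of the 3 control sets Prap1 was highest in the members, but it was found across the epithelial gate: the 340 gated cells in no set held it at 12254 CPM. Ptprc-positive cells held 1069 CPM and Pdgfra-positive cells 1612 CPM, while the empty droplets of the same library held 10070 CPM. Members just inside the threshold, with exactly 2 UMIs of the rule genes, numbered 51 and held Prap1 at 13265 CPM. The 49 gated cells just outside it, with 1 UMI and none of the other sets as high, held 22182 CPM. The 33 members that led the next set by 1 UMI held 25408 CPM and the 29 tied cells 22913 CPM, so Prap1 did not drop at the edge of the set.

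The bases before the start of Prap1 are shown because Prap1 is the label gene that stands outside the rule. The sequence is that of RefSeq on GRCm38.p6, the plus strand of chr7:140093146-140093395, and ends at the base before RefSeq's transcript start. GENCODE places the gene at chr7:140093395-140097200, so its first base is the last of the window. It was searched on both strands for 5 motifs: an interferon-stimulated response element (GAAA, any 2 bases, GAAA), an oestrogen response element (GGTCA, any 3 bases, TGACC), a heat shock element (GAA, any 2 bases, TTC, any 2 bases, GAA), an AP-1 site (TGANTCA, where N is any base) and a TATA box (TATAAA). None of these was found in the window, so no base is in capitals.
Prap1: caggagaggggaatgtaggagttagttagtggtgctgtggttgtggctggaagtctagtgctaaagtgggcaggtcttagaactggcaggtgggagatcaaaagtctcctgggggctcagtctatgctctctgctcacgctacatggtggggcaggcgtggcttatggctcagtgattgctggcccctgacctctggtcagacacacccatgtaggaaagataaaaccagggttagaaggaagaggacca
Among the 27025 genes with a RefSeq promoter entry, windows of 250 bases held the interferon motif in 3.46%, the oestrogen motif in 0.0666%, the heat shock motif in 0.514%, the AP-1 motif in 7.82% and the TATA motif in 14.3%. Cxcl17 and Clca1 are named without a promoter sequence.

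Members made up a much smaller share of the library labelled cKO. They were 10.9% of all control cells (382 of 3490, 95% interval 9.93 to 12.03%) and 0.335% of all cKO cells (12 of 3586, 0.173 to 0.584%), a 32.7-fold difference and a log2 ratio of -5.03 (-6.00 to -4.21). Most of that difference lay in the epithelial gate itself, which held 33.2% of control cells and 2.54% of cKO cells (log2 ratio -3.71). Within the gate members were 33.0% of control cells (30.3 to 35.7%) and 13.2% of cKO cells (12 of 91, 7.004 to 21.9%), a log2 ratio of -1.32 (-2.29 to -0.50). The Cited1 set went from 337 to 10 cells (29.1% and 11.0% of the gate), and the Sprr2d set from 69 to 13 (5.95% and 14.3%). With cells thinned to 1000 UMIs the member share of the gate was 13.1% in control and 2.38%, 1 cell, in cKO. Free RNA of the rule genes was higher in the control library (above), and its part in these shares was not tested. How well the epithelium was released from the tissue cannot be told apart from how many epithelial cells it held.

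Control members differed from the other 2 epithelial sets of their library in few genes. Of 3283 genes with at least 50 CPM, 154 were at least 2-fold higher than in the Sprr2d set (4.69%) and 202 at least 2-fold lower (6.15%), with a median log2 ratio of -0.09. Against the Cited1 set 226 of 3327 genes were higher (6.79%) and 276 lower (8.3%), with a median of -0.20. Scaling by the median of ratios gave 199 higher and 141 lower against the Sprr2d set, 177 and 424 against the Cited1 set, and medians of 0.05 and -0.34. Of 3002 genes measured in both comparisons, 40 were higher than in both sets (1.33%) and 11 lower than in both (0.366%). A gene entered with 50 CPM in 1 of the 2 sums, so a gene that passed only where it was high had its direction set by the filter. With 50 CPM asked of both sums, 64 of 2529 genes were higher and 92 lower against the Sprr2d set, and 100 and 162 of 2491 against the Cited1 set. The sets were defined on these cells, so these counts are a description and carry no test.

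The genes that stood highest above both sets included stress genes, genes of the dividing cell and a few secreted or surface proteins. Hspa1a, a heat-inducible chaperone, was at 918 CPM in members (896 to 940.2), 147 in the Sprr2d set and 54.3 in the Cited1 set. Its near-identical neighbour Hspa1b was at 1525, 664 and 154 CPM, and reads may have been split between the pair. The chaperone Hsph1 followed at 350.1, 97.1 and 53.6 CPM. Fos, an immediate early transcription factor, was at 1048 CPM against 314 and 233. Gadd45g, a stress-induced growth arrest gene, was at 412 CPM in members, 5.999-fold over the Sprr2d set (4.91 to 7.41) and 7.20-fold over the Cited1 set (6.51 to 7.97). Gdf15, a secreted stress cytokine of the TGF-beta family, was at 1268 CPM against 246 and 328, and 13.1% of its UMIs came from 1 cell. Each of these was past 2-fold over both sets, but not all stayed so under every alternative processing. The lowest log2 ratio over the Sprr2d set was 0.80 for Hspa1a and 0.19 for Fos. Over the Cited1 set it was 0.57 for Gdf15, while Hsph1 stayed past 2-fold over both sets. Rasd1, a small GTPase induced by glucocorticoids, was at 122 CPM against 23.6 and 30.7.

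Among secreted and surface proteins, Wfdc18, a whey acidic protein family member, was at 92.1 CPM in members, 11.1 in the Sprr2d set and 14.2 in the Cited1 set, and was counted in 26.2% of members. Anpep, the brush border aminopeptidase N, was at 193 CPM against 48.6 and 40.7, with UMIs in 58.1% of members. Fam13a, which is not of these classes, was at 64.6 CPM against 4.16 and 9.41. The division genes were rare. Top2a, which untangles replicated DNA, was at 52.9 CPM against 1.39 and 2.32, but only 26 of 382 cells held it and 1 cell held 32.1% of its UMIs. Prc1, a protein of the dividing spindle, was at 50.3 CPM and the spindle checkpoint gene Mad2l1 at 85.95 CPM. Wfdc18, Anpep, Fam13a, Top2a, Prc1 and Mad2l1, like Rasd1, were under 50 CPM in both other sets. They entered the ranking only through the members, so the filter set their direction. The 26 Top2a-positive members held the proliferation marker Mki67 at 146 CPM, against 4.48 CPM in the other 356, and were deeper, with a median of 39802 UMIs against 6567.

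Of the genes lowest against both sets, Akap12, a scaffold for kinases, differed most: 19.6 CPM in members, 108 in the Sprr2d set and 127 in the Cited1 set. Psph, the last enzyme of serine synthesis, was at 14.5 CPM against 43.7 and 51.8. Slc6a9, a glycine transporter, was at 18.4 CPM against 49.3 and 51.95. Ehd2, Cdk2ap2, Rhof, Dhrs1 and Ckap4 had log2 ratios between -1.36 and -1.09 against the 2 sets. Ckap4, a membrane protein of the endoplasmic reticulum, was at 79.5 CPM against 191 and 175. Among these genes Akap12, Psph, Slc6a9 and Cdk2ap2 were under 50 CPM in members, so the filter set their direction.

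**Figure D2:**
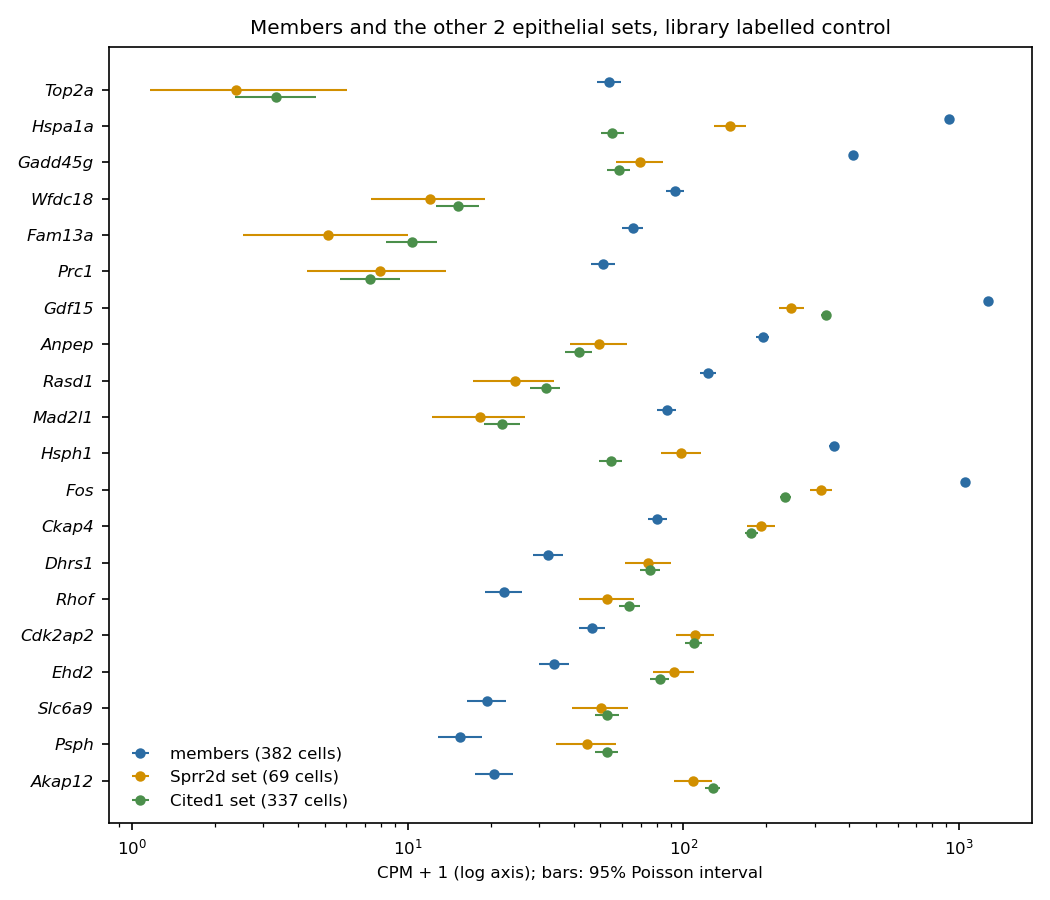
CPM + 1 (log axis) in members, the Sprr2d set and the Cited1 set of the library labelled control, for the 12 genes highest and the 8 lowest against both sets. Points are summed cells and bars the 95% Poisson interval of counting. Hspa1a stood at 918 CPM in the 382 members, against 147 and 54.3 CPM in the other sets, and Akap12 at 19.6 against 108 and 127 CPM.

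Most secreted defence genes lay within 2-fold of both other sets. Of the secreted defence list, 13 genes were measured against the Sprr2d set, of which 3 were higher and 1 lower (median log2 ratio 0.28). Of 12 measured against the Cited1 set, 3 were higher and none lower (median 0.61). With 50 CPM in both sums, 2 of 11 were higher than in the Sprr2d set and 2 of 10 than in the Cited1 set, and none was lower. Wfdc2, a protease inhibitor of genital tract secretions, was at 2079 CPM in members, 1630.5 in the Sprr2d set and 688 in the Cited1 set. Pigr, the receptor that carries IgA into the lumen, was at 359 CPM against 105 and 202. The iron-binding defence proteins Lcn2 and Ltf were at 5101 and 1750.2 CPM in members, with log2 ratios between 0.28 and 0.72 against both sets. Complement C3 was at 2494 CPM, with log2 ratios of 0.51 and 0.42. Slpi, another protease inhibitor, was lower than in the Sprr2d set (30.98 against 145 CPM), but passed the filter only through that set.

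Mucus genes differed little between the sets. Of the 4 measured genes of the mucin list, none was 2-fold higher or lower than in the Sprr2d set, and 1 was higher than in the Cited1 set (median log2 ratios 0.13 and 0.11, the latter -0.014 with median of ratios scaling). That gene was Fcgbp, a mucus-binding protein, at 283 CPM in members, 242 in the Sprr2d set and 130.3 in the Cited1 set. The membrane mucins Muc4 and Muc1 were at 416 and 236 CPM in members, against 378 and 216 in the Sprr2d set and 501 and 167 in the Cited1 set. The gel-forming mucin Muc5b was counted once in all 382 control members, and the goblet cell factor Spdef also once.

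Transport genes separated members from the Cited1 set. Of 11 measured genes 6 were higher and 1 lower (median log2 ratio 1.10), against none higher and 2 lower relative to the Sprr2d set (median -0.09, or 0.02 with median of ratios scaling). Over the Cited1 set 2 of the 6 passed the filter only through the members. With 50 CPM in both sums 4 of 8 were higher and 1 lower. Aqp5, a water channel, was at 254 CPM in members, 140.2 in the Sprr2d set and 62.9 in the Cited1 set. Car2, a cytosolic carbonic anhydrase, was at 479, 285 and 145 CPM. The pump regulators Fxyd3 and Fxyd4 were at 539 and 314 CPM in members, against 178 and 92.4 in the Cited1 set. Cftr, the apical chloride channel, was at 64.7 CPM against 105 in the Sprr2d set and 24.2 in the Cited1 set, and Gabrp at 65.5 against 70.1 and 27.97. Cftr and Gabrp passed the filter over the Cited1 set only through the members. The bicarbonate cotransporter Slc4a4 was the 1 transport gene lower than in the Cited1 set (79.4 against 205 CPM). Slc12a2, which loads chloride into the cell, was lower than in the Sprr2d set (194 against 416 CPM).

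Genes of protein folding in the endoplasmic reticulum were lower in members than in the Cited1 set. Of 16 measured, 11 were lower and none higher (median -1.62), whereas against the Sprr2d set 1 of 14 was higher and none lower (median 0.21). Of the 11, 2 passed the filter only through the Cited1 set, and with 50 CPM in both sums 9 of 14 were lower. Hspa5, the chaperone of the endoplasmic reticulum, was at 1789 CPM in members, 926 in the Sprr2d set and 6794 in the Cited1 set. Hsp90b1 was at 803, 384 and 2446 CPM, and Herpud1, a gene of the unfolded protein response, at 161, 97.8 and 742 CPM. In this list the members lay near the Sprr2d set.

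Hypoxia and glycolysis genes placed members between the 2 sets. Against the Sprr2d set 8 of 14 were higher and none lower (median 1.19), and against the Cited1 set 7 of 15 were lower and none higher (median -0.90). With 50 CPM in both sums, 5 of 11 were higher than in the Sprr2d set and 7 of 14 lower than in the Cited1 set. The other 3 of the 8, Bnip3 among them, passed the filter only through the members. Ankrd37, a hypoxia-induced gene, is 1 of the genes that chose the Cited1 set and was kept out of these counts. The other hypoxia genes stayed in, so the place of members below the Cited1 set cannot be told apart from that choice. Bnip3, a mitophagy receptor, was at 72.9 CPM in members, 4.86 in the Sprr2d set and 283 in the Cited1 set. The glucose transporter Slc2a1 was at 293, 82.6 and 835 CPM, and Vegfa, the vascular growth factor, at 643, 208 and 1204 CPM. Adm, a vasodilator peptide, was at 1037 CPM, close to the Cited1 set (904) and above the Sprr2d set (255).

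Squamous and cornified genes followed the rule that chose the Sprr2d set: 7 of 11 were lower in members than in that set and none higher (median -1.98), but 6 of those 7 passed the filter only through the Sprr2d set. Against the Cited1 set 3 of 5 measured genes were higher and none lower (median 1.08), 2 of the 3 passing only through the members. Sprr2f, a small proline-rich protein of the uterine epithelium that responds to oestrogen, was at 6316 CPM in members, 9949 in the Sprr2d set and 2995 in the Cited1 set. Sprr2b was at 123, 803 and 8.38 CPM, and Sprr2a3 at 75.3, 78.4 and 6.45 CPM. Sprr2 genes are close copies of each other, so reads may have been divided between them. Epithelial cytokines were lower than in the Sprr2d set in 5 of 8 genes and higher in none (median -1.90), 4 of the 5 passing the filter only through that set. Cxcl2, a neutrophil chemokine, was at 119 CPM against 386 in the Sprr2d set and 35.3 in the Cited1 set, with 30.3% of the members' UMIs in 1 cell, and Il1b was at 0 in all members.

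Of the immediate early and heat shock list, 11 of 18 genes were higher than in the Cited1 set and none lower (median 1.05). Against the Sprr2d set 7 of 18 were higher and none lower (median 0.85). Jun was at 1977 CPM in members, 659 in the Sprr2d set and 656 in the Cited1 set, and Egr1 at 840.5, 563 and 187 CPM. The cytosolic chaperone Hsp90aa1 was at 2343, 1243 and 745 CPM, and the co-chaperone Dnajb1 at 375, 87.4 and 165 CPM. The mitochondrial share was highest in members (above). Median depth was 5352 UMIs in the Sprr2d set, 7588 in members and 9480 in the Cited1 set, so the deepest set was not the highest in these genes. The part of depth and of the mitochondrial share was not tested beyond the following. With cells of at most 10% mitochondrial UMIs the counts were 10 higher over the Cited1 set and 6 over the Sprr2d set. With cells under 20000 UMIs 8 were still higher over the Cited1 set, but none was higher and 4 were lower against the Sprr2d set (median -0.49), so that difference held only with the deep cells included.

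Steroid receptors and their targets mostly lay within 2-fold of both sets, and the 2 measured gland markers, Sox9 and Lif, were higher than in the Sprr2d set. Of 9 measured steroid receptors and targets, none passed 2-fold against the Sprr2d set and 1 against the Cited1 set, which was the citrullinating enzyme gene Padi1 (526 against 229 CPM). The oestrogen receptor Esr1 was at 138 CPM in members, 66.6 in the Sprr2d set and 67.3 in the Cited1 set. The progesterone receptor Pgr, under 50 CPM in all 3 sums, was at 36.2, 15.96 and 13.9 CPM. Sox9, a transcription factor of glandular epithelium, was at 215 CPM against 86.03 and 94.9, and Msx1, a homeobox gene of uterine epithelium, at 131 against 72.8 and 38.3. Foxa2 and Cxcl15, which define uterine glands, were near 0 in control members, with 13 and 2 UMIs in all. Lif, the implantation cytokine made by glands, was at 124 CPM against 24.98 and 85.2, passing the filter over the Sprr2d set only through the members, and of the 2 only Sox9 was past 2-fold over the Cited1 set.

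**Figure D3:**
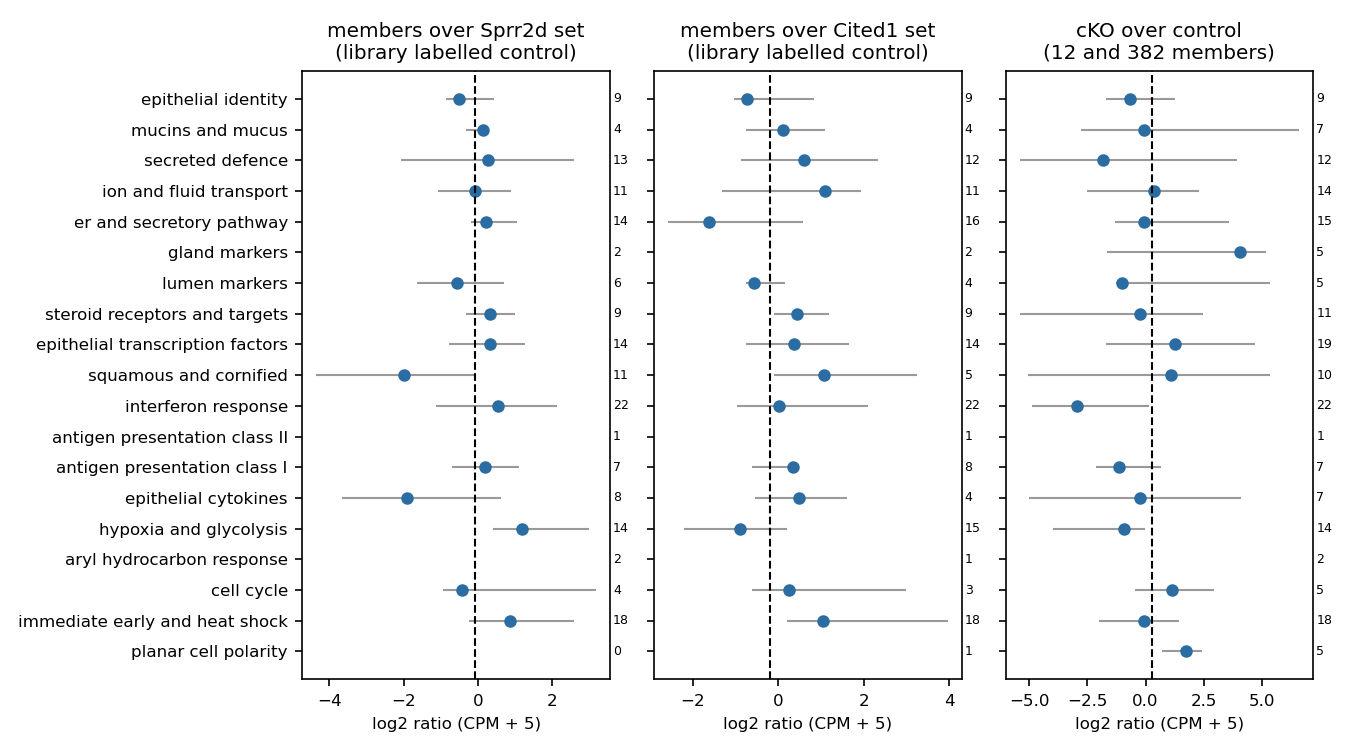
Median log2 ratio (CPM + 5, dot) and range (line) of each gene list for 3 comparisons: control members over the Sprr2d set, control members over the Cited1 set, and cKO members over control members. Dashed lines are the medians of all genes (-0.09, -0.20 and 0.27), numbers at the right are genes measured, and lists with fewer than 3 have no dot. The interferon list lay at 0.53, 0.02 and -2.96. Genes that passed 50 CPM in only 1 sum are included, which for the gland and planar cell polarity lists sets the cKO over control dot. The interferon dot of that comparison is limited in the same way, since 20 of its 22 genes passed only through the control sum.

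Interferon response genes were expressed in all 3 control sets, and some members also held the transcript of an interferon. Against the Sprr2d set 7 of 22 genes were higher and 1 lower (median 0.53), with 4 higher among those at 50 CPM in both sums, and with cells under 20000 UMIs 1 was higher. Against the Cited1 set 2 were higher and none lower (median 0.02, or -0.10 with median of ratios scaling). Those 2 were Cxcl10, a chemokine for T cells, at 498 CPM in members against 175 and 112, and Ifi27l2a at 67.99 against 79.1 and 28.6. Ifi27l2a passed the filter over the Cited1 set only through the members. Isg15, a ubiquitin-like modifier, was at 779 CPM in members, 472 in the Sprr2d set and 632 in the Cited1 set.

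Ifnb1, the type I interferon gene (chr4:88522025-88522774, minus strand), gave 549 UMIs in 41 of 382 control members (10.7%). It was counted in 3 of 69 cells of the Sprr2d set (4.35%), 25 of 337 of the Cited1 set (7.42%) and 10 of 2331 cells outside the epithelial gate (0.429%). A few cells held most of it: the highest member held 127 UMIs (23.1%), the first 2 together 42.3% and the first 5 together 59.2%. Empty droplets held Ifnb1 at 20.2 CPM. Ifnl3, a type III interferon gene with a close copy in Ifnl2, gave 32 UMIs in 9 members. Ifnb1-positive members also held more of the response genes: Isg15 was at 2601 CPM against 394 in the other 341 members, Ifit1 at 1652 against 258, Cxcl10 at 1431 against 301 and Ccl5 at 650.1 against 26.9. Those 41 cells were deeper, with a median of 16519 UMIs against 6682, and Prap1 was at 28582 CPM in them against 18508, while Clca1 was at 971 against 1429. No cKO member held an Ifnb1 UMI (0 of 12), and the whole cKO library held 2 UMIs in 1 cell.

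The sequences before the starts of Ifnb1 and Isg15 are shown because the former encodes the ligand and the latter is the response gene with the largest difference between the libraries. Both lie on the minus strand of GRCm38.p6 (RefSeq), at chr4:88522795-88523044 and chr4:156200819-156201068, and are written 5′ to 3′ along the gene. Capitals mark the motif matches.
Ifnb1: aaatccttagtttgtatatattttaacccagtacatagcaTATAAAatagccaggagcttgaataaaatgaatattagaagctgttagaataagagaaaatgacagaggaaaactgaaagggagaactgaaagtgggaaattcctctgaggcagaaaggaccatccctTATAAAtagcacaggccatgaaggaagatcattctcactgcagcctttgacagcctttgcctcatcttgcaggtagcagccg
Isg15: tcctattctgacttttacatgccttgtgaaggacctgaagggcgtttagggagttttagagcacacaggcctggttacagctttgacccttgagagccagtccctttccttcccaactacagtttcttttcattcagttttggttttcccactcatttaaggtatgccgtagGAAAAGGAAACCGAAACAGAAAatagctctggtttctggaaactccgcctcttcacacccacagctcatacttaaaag
Ifnb1 held 2 TATA motifs. Isg15 held 3 overlapping matches of the interferon-stimulated response element, which start at positions -78, -72 and -66 before the transcript start. Of the 20 genes of the interferon list with an entry, 12 (60.0%) held this motif within 250 bases, against 3.46% of all genes.

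Members differed among themselves by which rule gene led. Clca1 was highest in 257 control members, Cxcl17 in 46 and Car12 in 37, and 42 were tied. Clca1-led cells held more Sprr2f (6995 CPM, against 2957 in Cxcl17-led and 2294 in Car12-led cells), Serpina1e (825 against 327 and 267 CPM), Cfb (557 against 236 and 247 CPM) and S100g (334 against 101 and 112 CPM). Serpina1e encodes a secreted antitrypsin, Cfb complement factor B and S100g an epithelial calcium-binding protein. Prap1 was at 19671 CPM in Clca1-led cells, 25905 in Cxcl17-led, 8097 in Car12-led and 40264 in tied cells. Clca1-led cells were the deepest, with a median of 9726 UMIs against 5823, 4852 and 4427.5. Car12-led cells also held the fibroblast gene Dcn at 1006 CPM, and Cxcl17-led cells Top2a at 211 CPM, both from few cells. In the Car12-led cells the highest cell for each gene held 73.7% of the Serpina1e UMIs, 75% of the S100g UMIs, 50% of the Cfb UMIs and 46.4% of the Sprr2f UMIs. Without each gene's highest cell the levels were 105 CPM for Serpina1e, 42.1 for S100g, 185 for Cfb and 1839 for Sprr2f, still below the Clca1-led cells.

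**Figure D4:**
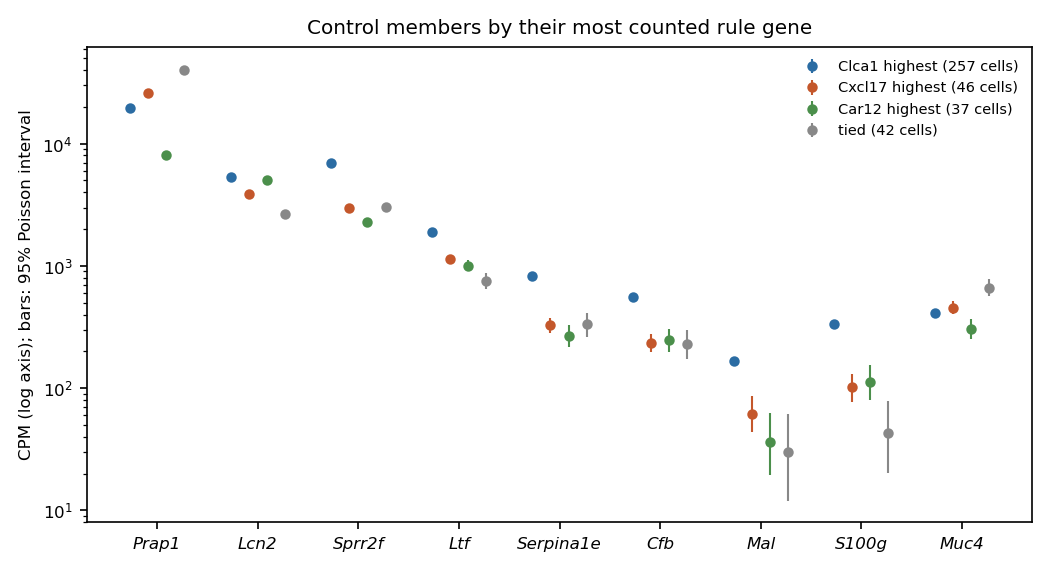
CPM (log axis) of 9 genes in control members grouped by the rule gene with most UMIs, with 95% Poisson intervals of counting. Sprr2f, Serpina1e, Cfb and S100g were highest in the 257 Clca1-led cells, and Prap1 was lowest in the 37 Car12-led cells (8097 CPM).

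Between the libraries, the 8 genes lowest in cKO members were Lcn2, Sprr2f, Isg15, BC048679, Spink12, Il1a, Ccl5 and Tmem158. Lcn2 was at 5101 CPM in control members (5049 to 5153) and 114 CPM in cKO members (65.3 to 185), a 44.7-fold difference (27.5 to 78.2). Control members held 37209 UMIs, with 97.4% of cells positive, and cKO members 16 UMIs in 3 of 12 cells. Sprr2f was at 6316 CPM against 186, 34.04-fold (23.2 to 52.1), with 26 UMIs in 3 cKO cells. Isg15 was at 779 CPM against 21.4, 36.4-fold (12.4 to 177), from 3 UMIs in 1 cKO cell. The groups overlapped at 0 for all 3 genes. The 5 other genes among the 8 lowest were at 0 in every cKO member, and the floor of 3 counts over the group gives lower bounds. BC048679 was at least 13.00-fold lower, Spink12, a serine protease inhibitor gene, at least 7.99-fold, Il1a, the alarmin interleukin, at least 7.24-fold, the chemokine Ccl5 at least 6.34-fold and Tmem158 at least 6.07-fold. In control members these 5 genes stood between 129.96 and 278 CPM. Prap1 was at 4068 CPM in cKO members, a log2 ratio of -2.32. It was not lower in all cKO epithelium: the Cited1 set of that library (10 cells) held it at 26379 CPM. The cKO Sprr2d set (13 cells) held Prap1 at 2257 CPM and the 54 gated cells in no set at 7279 CPM. Free RNA moved with the levels in members: empty droplets held Lcn2 at 1072 CPM in control and 20.3 in cKO, Sprr2f at 1654 and 38.3, and Prap1 at 10070 and 275. With free RNA subtracted at 5% of each sum, the log2 ratio was -5.42 for Lcn2, -5.05 for Sprr2f and -5.06 for Isg15. Without it the ratios were -5.42, -5.05 and -4.89. The 5% was an assumed share, and the estimated shares were 0.318% in control and 0.144% in cKO. So small a share can move these ratios little, and the part of free RNA was not tested further.

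The sequence before the start of Sprr2f is shown because Sprr2f is 1 of the 8 lowest genes in cKO members and is known from the uterine epithelium. It is the plus strand of chr3:92364937-92365186 (GRCm38.p6, RefSeq), with an AP-1 match at position -197 and a TATA match at -29 in capitals.
Sprr2f: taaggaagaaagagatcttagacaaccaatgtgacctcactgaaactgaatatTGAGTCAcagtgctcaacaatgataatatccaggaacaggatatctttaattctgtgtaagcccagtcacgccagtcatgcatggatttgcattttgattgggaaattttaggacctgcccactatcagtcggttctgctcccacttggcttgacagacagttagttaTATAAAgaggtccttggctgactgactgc

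Across all genes the comparison set 12 cells against 382. Of 3872 genes, 876 were at least 2-fold higher in cKO members (22.6%) and 492 at least 2-fold lower (12.7%), with a median log2 ratio of 0.27. Scaling by the median of ratios moved the median to -0.25 and the split to 521 higher and 1003 lower. In the cKO sum 50 CPM is few UMIs, and 671 of the higher genes passed the filter only through that sum, as 336 of the lower did only through the control sum. With 50 CPM asked of both sums 205 of 2254 genes were higher and 156 lower. Of 22 interferon response genes 17 were lower and none higher (median -2.96, or -2.15 with the genes at 0 set at their bound), but 20 of the 22 passed only through the control sum. With no filter 19 of all 25 genes of the list were lower and none higher, against 1575 lower and 3209 higher of all 32270 genes. Ifit1 was at 501 CPM in control and 42.8 in cKO members, Rsad2 at 449.5 and 21.4, Oasl1 at 276 and 14.3 and Cxcl10 at 498 and 28.5. Of 7 class I antigen presentation genes 4 were lower and none higher (median -1.15), 2 of the 4 with 50 CPM in both sums, among them B2m at 989 against 442 CPM.

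Secreted defence genes, Prap1 among them, were lower in 7 of 12 and higher in 1 (median -1.84), and in 6 and 1 of the 11 with 50 CPM in both sums. C3 was at 2494 CPM in control and 393 in cKO members, Anxa1 at 1181 and 236, and Elf3, an epithelial transcription factor outside this list, at 804 and 243. The gene that was higher was Clu, a secreted chaperone, at 83.2 and 1327 CPM, with 81.7% of the cKO UMIs in 1 cell. Ltf did not follow: 1750.2 CPM in control and 2733 in cKO members, the latter from 5 of 12 cells. Wfdc2 was at 2079 and 3725 CPM and was found in 10 of 12 cKO cells. Hypoxia and glycolysis genes were lower in 6 of 14 and higher in none (median -0.93), although 5 of the 6 passed only through the control sum, with Ero1l, an oxidase of the endoplasmic reticulum, at 416 and 21.4 CPM and Ndrg1 at 409.6 and 42.8. Immediate early and heat shock genes were higher in 2 of 18 and lower in 3 (median -0.07). Folding genes of the endoplasmic reticulum were higher in 2 of 15 and lower in 2 (median -0.06). The 4 mucin list genes with 50 CPM in both sums were higher in none and lower in 2, and Muc4 was at 416 and 57.1 CPM.

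Of 14 epithelial transcription factors with 50 CPM in both sums, 5 were higher and 2 lower (median 0.63), and 5 more were higher but passed only through the cKO sum. Esr1 was at 138 CPM in control and 449.6 in cKO members, in 8 of 12 cells. Pgr was at 36.2 and 221 CPM, Gata2 at 71.97 and 285, and Sox9 at 215 and 678, the last with 58.9% in 1 cell. Foxa2 was at 1.78 and 171 CPM, from 24 UMIs in 4 cKO cells. Gland markers gave no count, since 3 of the 5 measured passed only through the cKO sum. Cxcl15 was counted in 6 of 12 cKO members and in 1 of 382 control members, while Lif was at 124 and 35.7 CPM. Of 8 transport genes with 50 CPM in both sums 3 were higher and 1 lower (median 0.38 in all 14 measured, or -0.06 with median of ratios scaling). Slc12a2 was at 194 and 935 CPM, and Car2 at 479 and 143. No planar cell polarity gene reached 50 CPM in control members, and all 5 measured passed only through the cKO sum. Among them Vangl2 was at 18.1 and 71.4 CPM, from 10 UMIs in cKO cells, while Dvl1, below 50 CPM in both sums, was at 48.3 and 14.3, from 2 UMIs in cKO cells.

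Cell by cell, the 12 cKO members were not of 1 kind. The label genes went apart in them: Clca1 was found in 4 cells, Cxcl17 in 8, Car12 in 9 and Prap1 in 6, and 461 of 570 Prap1 UMIs lay in 1 cell. In this library the rule therefore selected cells of which 8 had no Clca1 and 6 no Prap1, and the secretory label rests on the control members. All 12 cells held Epcam, Cdh1, Cldn3 or Cldn4 by the rule, and 11 of 12 held Krt8. The numbers used below order the cells by depth, from 26218 UMIs in cell 1 to 2218 in cell 12.

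Cells 2, 3 and 4 shared Krt13, Serpinb11 and Lypd2, genes of stratified mucosal epithelia. Krt13, a keratin of such epithelia, gave 80, 42 and 33 UMIs in them, Serpinb11 gave 52, 31 and 28, and Lypd2 gave 17, 21 and 16. These were 3 of 12 cKO members (25%), against 1 of 382 control members (0.262%). Krt13 and Serpinb11 were picked for their high ratio in cKO members, and Lypd2 after its values were seen. The difference in these shares therefore follows from the choice of genes and is a description only. Over all cells 5 of 3586 in cKO and 2 of 3490 in control held the 3 genes together. The same 3 cells held most of the cKO members' Clca1 (8, 78 and 15 of 102 UMIs) and Ltf (46, 150 and 182 of 383 UMIs). Cells 3 and 4 added the mucin Muc5b (25 and 21 UMIs) and Olfm4, a secreted glycoprotein of mucosal epithelia (50 and 56 UMIs), and cell 3 alone held Tff1, a trefoil peptide of mucus (68 UMIs), and nearly all Ebpl (108 of 109 UMIs).

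Of the other cells, cells 1 and 6 held Bpifb5 (39 and 8 UMIs), a member of the family of bactericidal lipid-binding proteins, with Cxcl15 (9 and 8) and the cornified envelope gene Sprr1a (478 and 70), and 0 and 1 UMIs of Prap1. Cell 5 held the 461 Prap1 UMIs together with 55 of Krt8 and 58 of Wfdc2. Cell 7 had the highest mitochondrial share (19.6%), 17 of the 23 Top2a UMIs and 20 UMIs of Esr1. Cells 8 and 11 held Prap1 (25 and 74 UMIs) with Wfdc2 (112 and 11). Cells 9, 10 and 12 had at most 3936 UMIs and few counts of any of these genes. Cell 9 nevertheless held the most Car12 of the 12 cells (9 of 40 UMIs), with Cxcl17, Clca1, Prap1 and Wfdc2 at 0.

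The 8 highest log2 ratios in cKO members came from these few cells. They were Olfm4 (7.01), Ebpl (6.69), Serpinb11 (6.64), Tff1 (6.62), Bpifb5 (6.09), Muc5b (6.02), Krt13 (5.34) and Rasl11a (5.29). Tff1 and Bpifb5 were at 0 in all control members, which gives lower bounds of 1180.01-fold and 816-fold. Muc5b was counted once in control members, and its ratio of 2395 had a counting interval of 409 to 96617. Each was counted in at most 4 of the 12 cells, and Tff1 and Rasl11a in 1, so none describes the cKO members as a group. Without cells of 20000 UMIs or more, which drops cells 1 and 2, Rasl11a turned to -0.74. Doublets were not tested, so a pair of cells read as 1 cannot be told apart from a cell that expressed both kinds of gene.

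**Figure D5:**
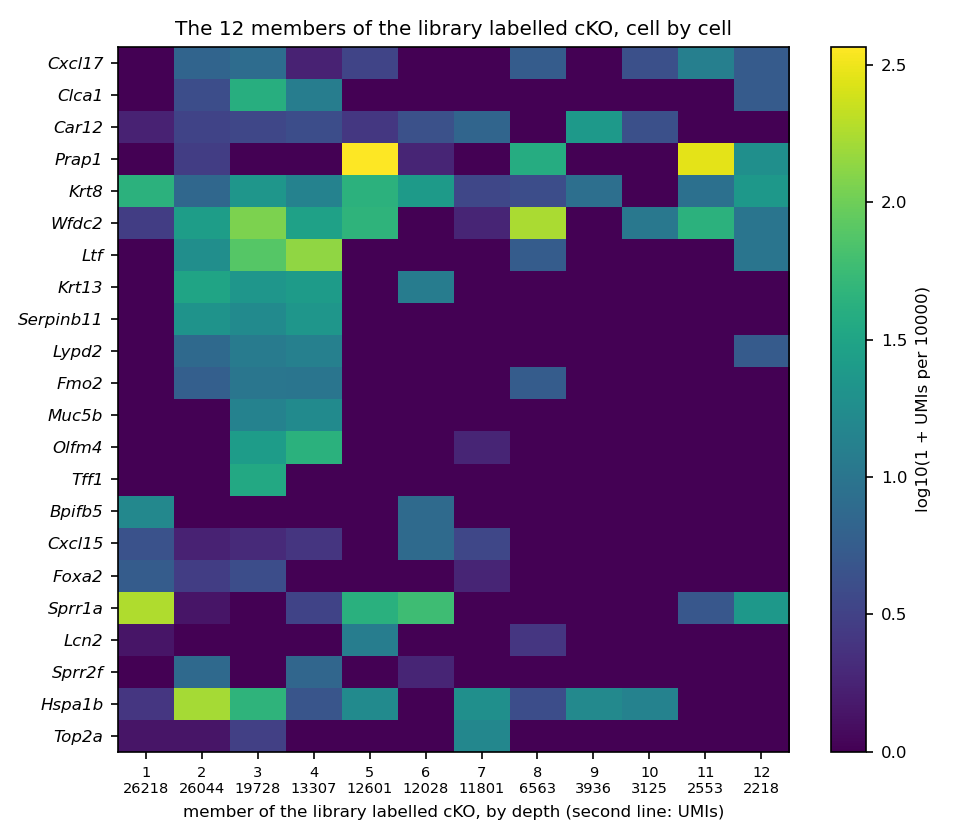
log10 of 1 + UMIs per 10000 for 22 genes (rows) in each of the 12 members of the library labelled cKO (columns, ordered by depth, with UMIs below). Colour gives the level. Krt13, Serpinb11 and Lypd2 were found together in cells 2, 3 and 4, and Prap1 was highest in cells 5 and 11.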

How the data were processed

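Raw UMI counts per gene and droplet barcode, unfiltered and not normalized, were deposited by the authors, per the file headers, which name Cell Ranger 4. The submitters' processing notes name Cell Ranger 6.1.1 and the mm10 build. A barcode was taken as a cell from 1000 UMIs and 500 genes upward, if mitochondrial genes held no more than 20% of its UMIs. Counts of members were summed per library and compared as log2 ratios of CPM + 5 over genes with at least 50 CPM in 1 of the 2 sums, rule genes excluded. A ratio of at least 1 in size on the log2 scale was called past 2-fold. No test was made, since each group is 1 library. Barcodes under 100 UMIs gave the free RNA. Thinning used 1000 UMIs per cell. Intervals were tested on counts simulated from the summed cells with Poisson error only. That check does not cover the spread between cells. Doublets were not removed.

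The members and gene lists were chosen with earlier results of these data known. Named genes were taken first by rule: Prickle1 and Prap1, the 8 highest and 8 lowest between libraries, the 12 highest and 8 lowest against both sets, and for each list the 4 with the highest CPM in control members and the 1 with the largest ratio. The other list genes with values were named after their values were seen, as were Ifnb1, Ifnl3, Lypd2, Serpina1e and S100g. Coordinates came from GENCODE vM21 on GRCm38 by Ensembl identifier, which matched 99.6% of 32285 identifiers. Python 3.11.15, numpy 2.4.6, scipy 1.17.1 and pandas 2.3.3 were used. In all 16 alternatives were tried, 4 of them chosen after seeing the data. The values of 1 gene are not reported here.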

Additional observations from a re-analysis of the deposited data

How the results depend on the processing

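No paired analysis was possible because the labels carry no replicate numbers and each group is 1 library, and for the same reason no library could be left out in turn. The member share of all cells kept its direction under every alternative, between -6.62 (cells thinned to 1000 UMIs, where cKO keeps 1 member) and -4.54 (other sets at 0) on the log2 scale. The control share of the gate was 29.1% with at most 10% mitochondrial UMIs, 28.6% with at least 3 rule UMIs, 13.6% with the other sets at 0 and 13.1% thinned, and the cKO share was 2.38% thinned. Counts of genes past 2-fold between the libraries became 1723 higher with the other sets at 0, 2068 and 872 (higher and lower) with a filter of 20 CPM, 137 and 131 with a filter of 200 CPM, 521 and 1003 with median of ratios scaling, 1448 higher in cells under 20000 UMIs, and 205 and 156 with 50 CPM in both sums. Against the Sprr2d set they became 584 and 1074 with the other sets at 0, 1047 and 1736 thinned, 100 and 133 with a pseudocount of 20 CPM, 243 and 325 with a filter of 20 CPM, 53 and 70 with a filter of 200 CPM, 249 and 456 in cells under 20000 UMIs, and 64 and 92 with 50 CPM in both sums. Against the Cited1 set they became 467 and 752 with the other sets at 0, 704 and 660 thinned, 169 lower with a pseudocount of 20 CPM, 390 higher with a filter of 20 CPM, 73 and 103 with a filter of 200 CPM, 424 lower with median of ratios scaling, and 100 and 162 with 50 CPM in both sums. That filter turned the squamous list's median between the libraries from 1.07 to -1.42.

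Ratios that changed sign were few: 2 of 240 for the genes named between the libraries and 11 of 630 for those named against the sets. With the other sets at 0, Rasl11a was at -1.23 between the libraries, and Prc1 at -1.16 and Akap12 at 0.69 against the Sprr2d set. Under 20000 UMIs, Rasl11a was at -0.74, and Psph at 0.42 and Slc6a9 at 0.94 against the Sprr2d set. Thinned, where low genes rest on about 1 UMI, Wfdc18 was at -1.16, Psph at 2.86, Rhof at 2.86 and Ckap4 at 0.44 against the Sprr2d set, and Rasd1 at -0.089, Slc6a9 at 0.42 and Cdk2ap2 at 0.25 against the Cited1 set. Thinned cKO gene counts are not given, since 1 member remains. The limits are 1 pool per group, 12 cKO members and a control library with more free RNA of epithelial genes.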

Other observations

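Among gated control cells outside the 3 sets, Ifnb1 was also present. It gave 83 UMIs in 6 of the 31 tied cells (19.4%) and 50 UMIs in 11 of the 340 cells in no set (3.24%). The class II antigen presentation genes were nearly silent in control members: of 7 genes only Cd74, the invariant chain, reached 50 CPM, at 89.7 CPM against 216 in the Sprr2d set and 161 in the Cited1 set, with 20.9% of its UMIs in 1 member. Nqo1, a detoxifying enzyme of the aryl hydrocarbon response list, was at 27.97 CPM in members, 162 in the Sprr2d set and 1.29 in the Cited1 set.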
